A study of Rattus with 4 samples.

Results

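The transcripts of 69 genes for heterogeneous nuclear ribonucleoproteins (hnRNPs) and other sequence-specific RNA-binding proteins were followed between RNA precipitated with an antibody to NONO and its input, in cultured rat cardiac cells. The 69 were the protein-coding genes, among 12190 such genes and 13731 listed genes in all, whose symbols begin with Hnrnp, Rbm and a digit, Rbfox, Celf, Mbnl, Elavl, Fubp, Khdrbs, Ptbp or Pcbp. No listed gene began with Qki. Hnrnph3, Hnrnpk and Rbm14 match these prefixes and were left out by the same rule. The rule uses names alone, and it was set with earlier results of these data known.

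These proteins bind short sequence elements in pre-mRNA and mRNA through RNA recognition motifs, KH domains or zinc fingers, and they decide which exons are kept, where RNA goes in the cell and how long it lasts. Many bind the transcripts of their own genes and of their relatives, including alternative exons that send the message to decay. In heart muscle, RBFOX, CELF, MBNL, PTBP and RBM20 proteins are known for the switch between fetal and adult splice forms. NONO is itself a nuclear RNA-binding protein with a pair of RNA recognition motifs and a core protein of paraspeckles.

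The study used RNA immunoprecipitation sequencing (RIP-seq), in which an antibody draws down a protein together with RNA and both that RNA and the starting RNA are sequenced. There were 2 libraries precipitated with anti-NONO antibody (NONO IP), whose cells are labelled as transfected with NONO siRNA, and 2 input libraries with no antibody, whose cells are labelled as transfected with an empty vector. Precipitation and siRNA therefore cannot be told apart from the labels, and none of the 4 libraries used a control antibody. RNA was selected by its poly(A) tail and sequenced with a strand-marking kit. All 4 are described as a rat cardiac fibroblast line in the growth protocol and as H9C2, a myoblast line of embryonic rat heart, in the titles. Nothing says whether the 2 libraries of a group came from separate cultures, so p-values measure only the spread between these libraries, which may be technical.

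Gene counts summed to 279410 and 264059 in the NONO IP and to 249548 and 238776 in the inputs, so that 3 reads were worth 10.7 to 12.6 CPM (counts scaled by the library total) in a library. Nono itself had 3 and 3 reads in the NONO IP and 21 and 9 in the inputs. Of 12 cardiac fibroblast markers, 11 were read, with 21857 and 21094 reads in the NONO IP and 23283 and 22352 in the inputs, with 20647 of the input reads on Col1a1. Of 9 skeletal myoblast markers, 2 were listed, with 2 and 5 reads in the NONO IP and 11 and 10 in the inputs, and Myod1 and Myog were not among the listed genes. Cardiomyocyte markers summed to 83 reads in each NONO IP library and to 55 and 73 in the inputs. Smooth muscle markers had 557 reads in each NONO IP library and 858 and 850 in the inputs. Macrophage and leukocyte markers had 5 and 1 reads in the NONO IP and 14 and 14 in the inputs, and endothelial markers 6 and 1 in the NONO IP and 5 and 1 in the inputs. Ribosomal RNA took 31.9% and 32.2% of NONO IP counts and 42.3% and 41.1% of input counts. The part of these differences in the results below was not tested.

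The tested genes among the 69 were called about as often as other genes, and single members lay far apart. Hnrnpf and Rbfox2 rose, and Hnrnpab and Ptbp1 fell, in the NONO IP, and these 4 passed the filter in both groups and kept their calls in every alternative run on them. The counts were shallow, and 29 members passed the filter on low counts and were tested. Of these, 8 rose and 6 fell at an adjusted p under 0.05 (edgeR quasi-likelihood test, NONO IP against input), and 15 did not pass. That is 27.6% higher and 20.7% lower, beside 29.8% higher and 26.9% lower of all 2920 genes tested. Among the 2777 protein-coding genes tested, 27.3% were higher and 27.7% lower. The median log2 fold change was 0.00 over the 29 members and 0.02 over all tested genes, and the members ran from −2.86 to 2.71. The share of members called was close to that of all genes in the higher direction and somewhat under it in the lower one. These splits depend on the scaling. With library totals, 12 members were higher and 4 lower, beside 41.7% and 15.2% of all genes, and on log2(RPKM + 1), the reads per kilobase scale, 2 of 50 were higher and 12 lower, beside 5.19% and 18.8%. On the scaled levels the groups did not overlap for 12 members that were higher and 11 that were lower in the NONO IP, beside 40.6% and 37.3% of all genes. Rose and fell here compare precipitated RNA with input RNA, from cells labelled with different transfections, and are not measures of expression alone. In such bulk libraries, fewer cells of a type and less RNA per cell also cannot be told apart.

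Which library carried the reads decided in part who was tested. The filter asked for about 10 reads, or 38.9 CPM, in at least 2 libraries. Of the 29 members, 15 reached this in both inputs and both NONO IP libraries, 9 reached it in both NONO IP libraries but not in both inputs, and 3 reached it in both inputs but not in both NONO IP libraries; the remaining 2, Rbm26 and Hnrnpdl, reached it in 1 library of each group. Of the 15, 3 rose (Hnrnpf, Rbfox2 and Hnrnpll) and 3 fell (Hnrnpab, Ptbp1 and Hnrnpl), beside 18.2% and 34.8% of the 1440 genes that passed through both. Of the 9, 5 rose (Celf2, Fubp3, Rbm33, Rbm19 and Hnrnpd), beside 61.5% of 990 genes. All 3 that passed through the inputs fell (Rbm39, Pcbp4 and Rbm42), as did 80.5% of 353 genes of that kind. Genes of these last kinds passed through the group in which they were high, so nothing is read from those counts.

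**Figure D1:**
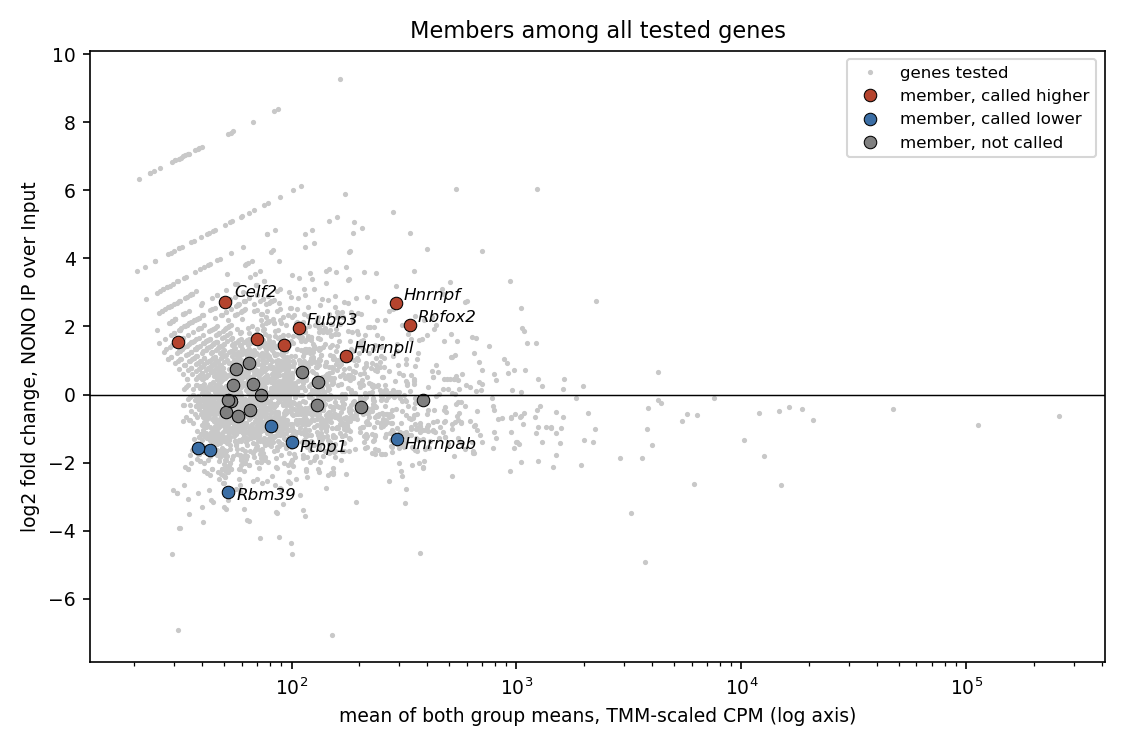
Each point is a tested gene; the horizontal axis is the mean of the NONO IP and input group means in TMM-scaled CPM on a log axis, and the vertical axis is the log2 fold change of NONO IP over input. The 29 members (large points, coloured by call) are scattered within the cloud of 2920 genes between −2.86 and 2.71.

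Of the hnRNP F/H proteins, which bind runs of guanines near splice sites and polyadenylation sites, Hnrnpf (chromosome 4) was read 161 and 131 times in the NONO IP and 14 and 16 times in the inputs. Both NONO IP libraries lay far above both inputs. Scaled by the trimmed mean of M values (TMM), this was 507 ± 54.6 CPM in the NONO IP and 78.4 ± 8.87 CPM in the inputs (SD, n = 2 each). It rose by 2.69 on the log2 scale (SE 0.22, edgeR adjusted p = 1.92e-08) and stayed called in all 17 alternatives tried, between 1.96 and 3.15. Its relative Hnrnph1 had 7 and 4 reads in the NONO IP and 14 and 6 in the inputs. Hnrnph1 was below the filter, and its ratio of NONO IP to input was 0.366 with an exact conditional 95% interval of 0.159 to 0.802, for counting error only. Hnrnph2 had 0 and 2 reads in the NONO IP and 2 and 3 in the inputs.

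Of the tested hnRNP A/B and D genes, Hnrnpab fell, Hnrnpd rose, and Hnrnpdl and Hnrnpa2b1 were not called. Hnrnpd reached the filter in both NONO IP libraries but not in both inputs, so no split of these genes is read from its rise. Hnrnpab (chromosome 10), an mRNA-binding protein of nucleus and cytoplasm, had 47 and 50 reads in the NONO IP and 68 and 92 in the inputs, and fell by 1.31 on the log2 scale (SE 0.20, edgeR adjusted p = 3.88e-05). Its scaled level was 169 ± 13.8 CPM in the NONO IP and 419 ± 96.6 CPM in the inputs (SD, n = 2 each). The call held in all 17 alternatives, with an offset for gene length bringing the fold change to −0.80. Hnrnpab overlaps Phykpl in the RefSeq gene table, and Phykpl had 21 and 21 reads in the NONO IP and 10 and 11 in the inputs.

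Hnrnpd (chromosome 14), also called AUF1, binds AU-rich elements and speeds mRNA decay. It had 39 and 39 reads in the NONO IP and 10 and 9 in the inputs, with no overlap of the groups. It rose by 1.44 (SE 0.33, edgeR adjusted p = 0.00126). Hnrnpd lost its call on the 3 RPKM settings, its adjusted p lying between 7.07e-05 and 0.180 over all its alternatives. Its paralog Hnrnpdl had 25 and 10 reads in the NONO IP and 12 and 7 in the inputs (log2 fold change 0.29, adjusted p = 0.619), so that the NONO IP libraries differed from each other more than the groups did. Hnrnpa2b1, which sorts RNA into granules and vesicles, had 21 and 22 reads in the NONO IP and 16 and 7 in the inputs (log2 fold change 0.31, adjusted p = 0.519).

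Hnrnpa1, the best known antagonist of SR proteins in exon choice, was below the filter with 7 and 5 reads in the NONO IP and 12 and 9 in the inputs. Its NONO IP to input ratio was 0.381, with a counting interval of 0.171 to 0.810. Hnrnpa1 has many processed pseudogenes, which can share its reads. Hnrnpa3 had 13 and 5 reads in the NONO IP and 6 and 3 in the inputs, a ratio of 1.33 (interval 0.568 to 3.37).

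The tested genes of the hnRNP L and polypyrimidine tract proteins, which bind CA repeats and pyrimidine runs and often silence exons, were split. Hnrnpll (chromosome 6), a regulator of alternative exons of the leukocyte antigen CD45, had 71 and 67 reads in the NONO IP and 19 and 23 in the inputs. It rose by 1.13 on the log2 scale (SE 0.24, edgeR adjusted p = 0.000827), with levels of 240 ± 0.745 CPM in the NONO IP and 110 ± 16.9 CPM in the inputs (SD, n = 2 each). Hnrnpl (chromosome 1) had 17 and 15 reads in the NONO IP and 22 and 19 in the inputs, and fell by 0.94 (SE 0.34, edgeR adjusted p = 0.0240). Both NONO IP libraries lay on one side of both inputs for each gene, on opposite sides. Hnrnpl lost its call when any of 3 libraries was left out, and also with library totals (−0.48), the DESeq2 test, no count filter (−0.72) and the length offset (−0.75). The adjusted p was 0.0918 on leaving out Input replicate 1, 0.0861 on leaving out NONO IP replicate 1 and 0.0977 on leaving out NONO IP replicate 2, within 0.0190 to 0.233 over all its alternatives. Hnrnpll kept its call without any 1 library but not on the RPKM scales, where its fold change was 0.45 at a pseudocount of 1.

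Ptbp1 (chromosome 7), the polypyrimidine tract binding protein that represses exons in non-neuronal cells, had 15 and 17 reads in the NONO IP and 30 and 26 in the inputs. It fell by 1.39 (SE 0.31, edgeR adjusted p = 0.00101), to 55.8 ± 7.03 CPM in the NONO IP, against 146 ± 12.0 CPM in the inputs (SD, n = 2 each). Its call held in all 16 alternatives, with adjusted p between 0.000298 and 0.0351. Ptbp2, the neuronal form, had 1 read in every library, and Ptbp3 had 2 and 3 reads in the NONO IP and 4 and 0 in the inputs.

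The hnRNP U genes and Hnrnpm did not pass, and Hnrnpc and Hnrnpr were not tested. Hnrnpu, which binds nuclear RNA and chromatin as scaffold attachment factor A, held the most reads of any member, 113 and 96 in the NONO IP and 78 and 78 in the inputs (log2 fold change −0.17, SE 0.16, edgeR adjusted p = 0.382). Its direction depends on scaling, being 0.30 with library totals and −0.48 with the length offset, where it was called (adjusted p = 0.0186, within 0.0186 to 0.900 over its alternatives). Hnrnpul1 had 47 and 38 reads in the NONO IP and 20 and 24 in the inputs (0.36, adjusted p = 0.267), and Hnrnpul2 had 30 and 37 in the NONO IP and 26 and 29 in the inputs (−0.30, adjusted p = 0.360). Hnrnpm, a splicing regulator that binds GU-rich elements, had 14 and 12 reads in the NONO IP and 14 and 13 in the inputs (−0.64, adjusted p = 0.166). The same number of reads gives a lower TMM-scaled level in the NONO IP, whose effective library sizes are larger. Hnrnpc, which binds uridine runs, had 9 and 6 reads in the NONO IP and 7 and 7 in the inputs, and Hnrnpr 5 and 3 in the NONO IP and 4 and 3 in the inputs; both were below the filter.

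**Figure D2:**
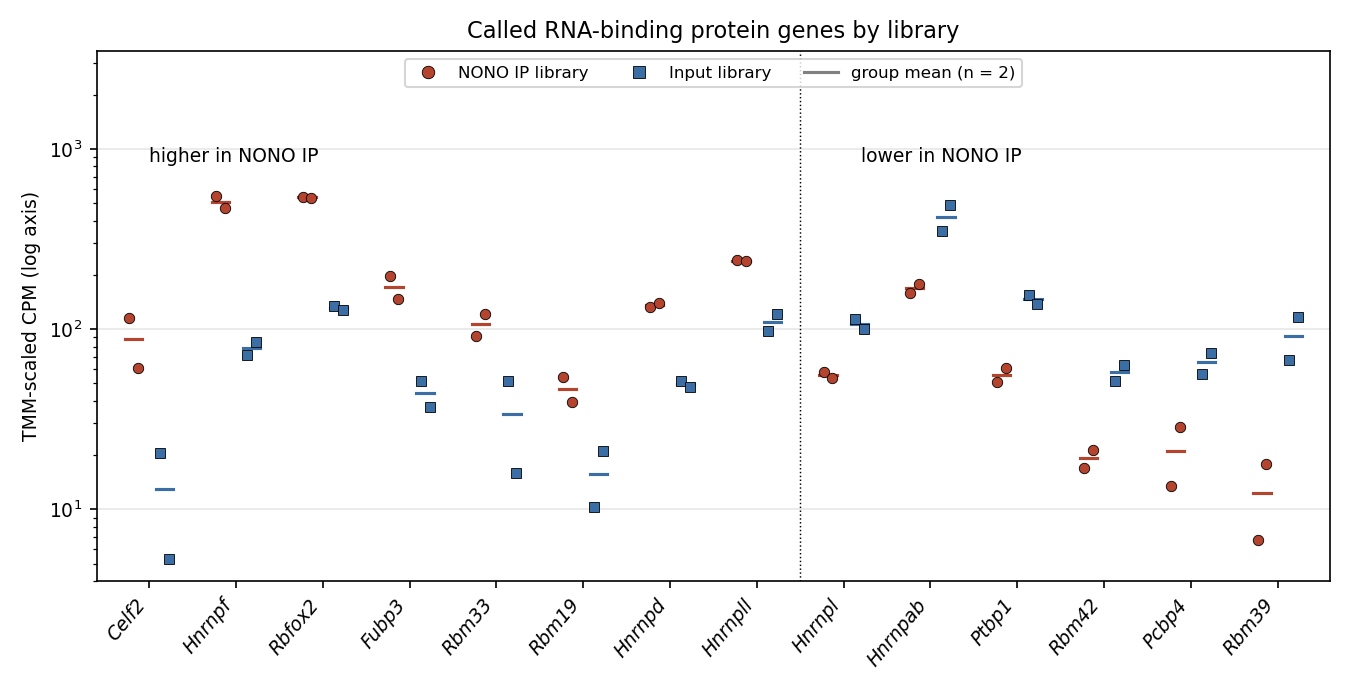
Levels of the 14 called members in each library as TMM-scaled CPM on a log axis, with NONO IP libraries (circles) left of input libraries (squares) and a bar at each group mean (n = 2). The groups do not overlap for any of the 14; Hnrnpf and Rbfox2 averaged 507 and 539 CPM in the NONO IP, while Hnrnpab averaged 419 CPM in the inputs.

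Among splicing regulators of muscle and mesenchyme, Rbfox2 was raised with the least spread. RBFOX2 acts on exons of cytoskeletal and adhesion genes through a GCAUG element. Rbfox2 (chromosome 7) had 160 and 150 reads in the NONO IP and 26 and 24 in the inputs, or 539 ± 4.17 CPM and 130 ± 4.90 CPM (SD, n = 2 each). It rose by 2.04 (SE 0.19, edgeR adjusted p = 6.86e-08), and the call held in all 17 alternatives, between 1.25 and 2.50. Rbfox1, the muscle and neuron form, had 1 and 3 reads in the NONO IP and none in the inputs.

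The CELF proteins bind GU-rich elements and promote fetal splice forms in heart. Celf2 (chromosome 17) had 34 and 17 reads in the NONO IP and 4 and 1 in the inputs, a rise of 2.71 (SE 0.59, edgeR adjusted p = 0.000849). Both groups were spread about 2 fold or more within themselves, yet did not overlap. The value was 3.92 without Input replicate 1, 2.02 without Input replicate 2 and 1.64 with the length offset, Celf2 being the longest tested member at 6.75 times the median protein-coding gene by the length that counts and RPKM imply. On the log2(RPKM + 1) scale without a filter it was 0.77 with an adjusted p of 0.279, the highest over its 14 alternatives, against a lowest of 8.12e-07. Celf1 had 21 and 20 reads in the NONO IP and 10 and 6 in the inputs (0.76, SE 0.41, adjusted p = 0.119). Of the neuronal forms, Celf3 had 0 and 2 reads in the NONO IP and none in the inputs, and Celf4 had 1 and 4 in the NONO IP and 0 and 1 in the inputs.

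The muscleblind genes, whose proteins oppose CELF in the shift to adult splicing, did not pass. Mbnl1 had 25 and 17 reads in the NONO IP and 17 and 11 in the inputs (0.00, 95% interval −0.77 to 0.77), and Mbnl2 had 16 and 16 in the NONO IP and 15 and 14 in the inputs (−0.44, interval −1.20 to 0.32). The scaled levels of the groups overlapped for Mbnl1 and not for Mbnl2. In the RefSeq gene table Mbnl1 overlaps LOC120100833, with 5 and 11 reads in the NONO IP and 0 and 1 in the inputs. Mbnl2 overlaps LOC120097087, with 17 and 20 reads in the NONO IP and 2 and 1 in the inputs. The strand setting of the count is not given, so reads between these genes are uncertain. Elavl1 (HuR), which stabilises mRNAs with AU-rich elements, had 4 and 7 reads in the NONO IP and 1 and 1 in the inputs, a ratio of 3.66 with a counting interval of 0.799 to 34.0.

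The tested KH-domain genes ran from −1.62 for Pcbp4 to 1.94 for Fubp3. Fubp3 reached the filter in both NONO IP libraries but not in both inputs, and Pcbp4 the reverse, so nothing is read from this range. Pcbp1 (0.67) and Pcbp2 (−0.52), which passed through both groups, were not called. Fubp3 (chromosome 3), a relative of the MYC far upstream element binding protein, had 58 and 41 reads in the NONO IP and 10 and 7 in the inputs. It rose by 1.94 (SE 0.34, edgeR adjusted p = 0.000120), with 171 ± 35.3 CPM in the NONO IP and 44.3 ± 10.2 CPM in the inputs (SD, n = 2 each). Fubp3 lost its call only on the 3 RPKM settings, with adjusted p between 1.19e-07 and 0.0984 over 16 alternatives. Fubp1 had 3 and 0 reads in the NONO IP and 4 and 0 in the inputs.

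The poly(rC) binding proteins stabilise C-rich mRNAs and act in translation and splicing. Pcbp4 (chromosome 8) had 4 and 8 reads in the NONO IP and 11 and 14 in the inputs and fell by 1.62 (SE 0.46, edgeR adjusted p = 0.00644). That call ended when Input replicate 2 was left out (−1.48, adjusted p = 0.171) or NONO IP replicate 1 (−1.12, adjusted p = 0.135), with adjusted p between 0.00530 and 0.171 over its alternatives. Pcbp1, an intronless gene, had 40 and 39 reads in the NONO IP and 16 and 17 in the inputs. These groups do not overlap, but at 0.67 (SE 0.29) the edgeR adjusted p of 0.0537 missed the threshold, and it lay between 0.00242 and 0.965 over the alternatives. Pcbp2 had 11 and 13 reads in the NONO IP and 10 and 13 in the inputs (−0.52, adjusted p = 0.286). It overlaps Map3k12 in the RefSeq gene table, which had 19 and 16 reads in the NONO IP and 2 and 3 in the inputs. Pcbp3 had 3 and 7 reads in the NONO IP and none in the inputs. Setting the input group to a floor of 3 counts gave a fold of 2.22, which is not a lower bound. The exact conditional interval of its ratio, for counting error only, began at 1.49 and had no upper limit. Khdrbs1 (Sam68), a signal-dependent splicing regulator, had 11 and 17 reads in the NONO IP and 9 and 12 in the inputs (−0.17, adjusted p = 0.753).

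Of the 31 RBM genes, 7 were tested, of which 2 rose and 2 fell, or 28.6% each way, beside 29.8% and 26.9% of all tested genes. The 2 that rose, Rbm33 and Rbm19, reached the filter in both NONO IP libraries but not in both inputs. The 2 that fell, Rbm39 and Rbm42, reached it in both inputs but not in both NONO IP libraries. Of all genes of these kinds, 61.5% rose and 80.5% fell, so nothing is read from this split. Rbm39 (chromosome 3), a splicing coactivator that works with U2AF, had 2 and 5 reads in the NONO IP and 13 and 22 in the inputs. It fell by 2.86 (SE 0.51, edgeR adjusted p = 0.000154). The value was −3.60 without NONO IP replicate 2 and −2.26 when NONO IP replicate 1 was left out, and the call ended only on log2(RPKM + 1) values with no filter (adjusted p = 0.0662, lowest over the alternatives 6.31e-06). Rbm42 (chromosome 1) had 5 and 6 reads in the NONO IP and 10 and 12 in the inputs and fell by 1.56 (SE 0.46, edgeR adjusted p = 0.00763). Its call ended without any 1 of the 4 libraries, at −1.73, −1.47, −1.34 and −1.68 without Input replicates 1 and 2 and NONO IP replicates 1 and 2, and its adjusted p reached 0.239 over the alternatives.

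Rbm33 (chromosome 4) had 27 and 34 reads in the NONO IP and 10 and 3 in the inputs, and rose by 1.63 (SE 0.44, edgeR adjusted p = 0.00443). The 2 inputs differ by more than 3 fold, and the value was 2.67 without Input replicate 1 and 0.98 without Input replicate 2, where the call ended. Rbm33 also lost its call by the DESeq2 test, on the 3 RPKM settings and with the length offset. Its adjusted p reached 0.422 over the alternatives. Rbm19 (chromosome 12), a factor of ribosome assembly, had 16 and 11 reads in the NONO IP and 2 and 4 in the inputs. It rose by 1.55 (SE 0.54, edgeR adjusted p = 0.0202), and its call ended without any 1 of the libraries, at 1.1, 2.08, 1.35 and 1.81 without Input replicates 1 and 2 and NONO IP replicates 1 and 2, its adjusted p reaching 0.364. Rbm25, a splicing factor of apoptotic isoforms, had 30 and 19 reads in the NONO IP and 8 and 9 in the inputs (0.93, adjusted p = 0.0546). It did not pass here but did with library totals (1.39), with protein-coding genes alone (1.00), with the replicate block (0.93) and without NONO IP replicate 2 (1.24), its adjusted p lying between 0.00564 and 0.624. Rbm15b, a partner of the RNA methylation complex, had 42 and 60 reads in the NONO IP and 47 and 40 in the inputs (−0.35, adjusted p = 0.215). Rbm26 had 21 and 8 reads in the NONO IP and 13 and 9 in the inputs (−0.19, adjusted p = 0.747).

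**Figure D3:**
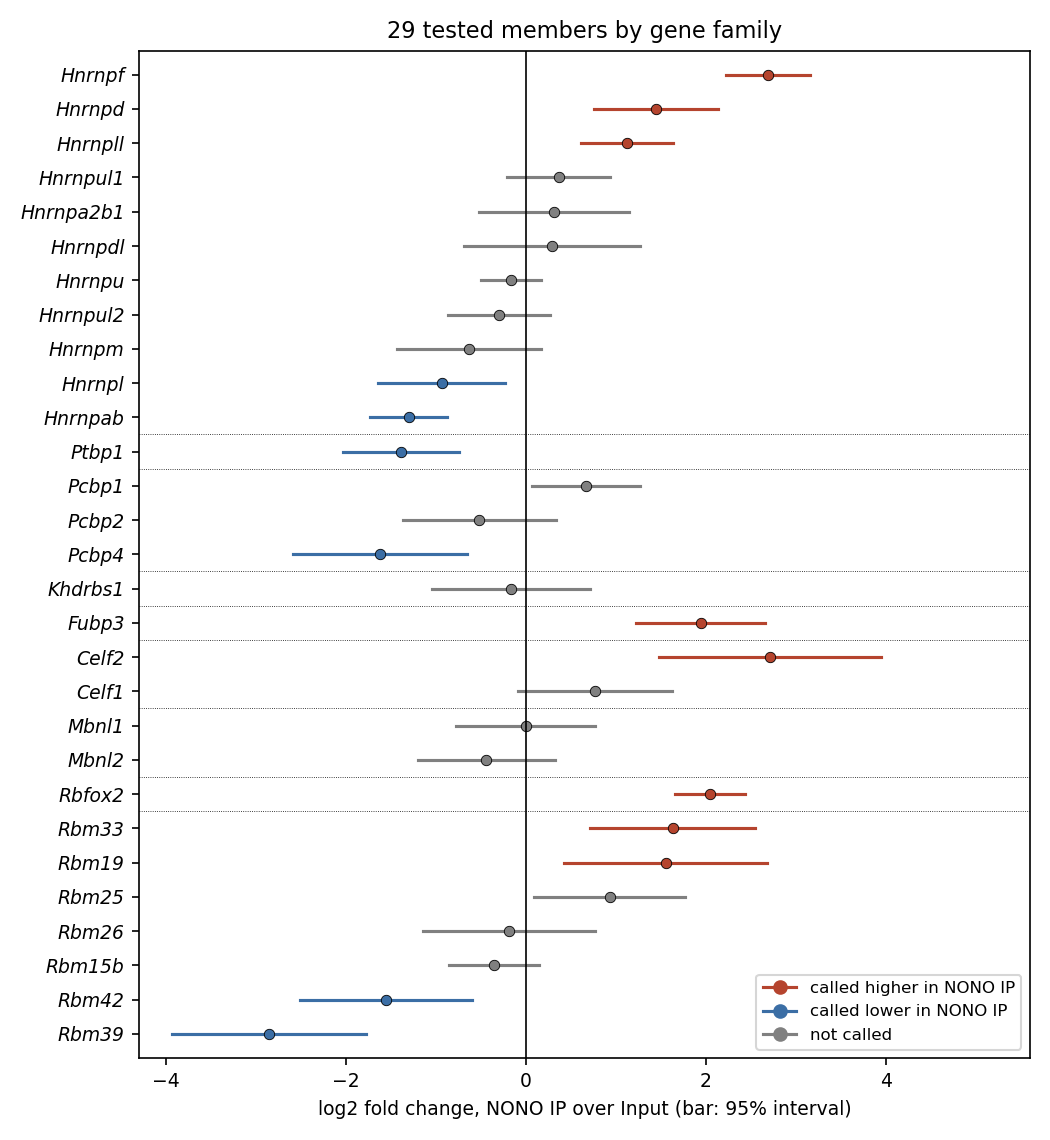
Log2 fold change of NONO IP over input for the 29 tested members, grouped by gene family from top to bottom, with bars for the 95% interval of the edgeR fit and colour for the call. Hnrnp and Rbm genes hold members on both sides of 0, from −1.31 to 2.69 and from −2.86 to 1.63.

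The 40 members outside the test held 235 NONO IP reads and 217 input reads together. Of these, 19 had at least 10 reads over the 4 libraries. Rbm3, a cold-induced RNA-binding protein, had 2 and 1 reads in the NONO IP and 6 and 11 in the inputs, 8.51-fold fewer in the NONO IP (exact conditional 95% interval 2.46 to 45.3, for counting error only). Rbm5, a splicing factor of the FAS gene, had 3 and 1 reads in the NONO IP and 4 and 6 in the inputs, a ratio of NONO IP to input of 0.266 (interval 0.0610 to 0.924). Its neighbour Rbm6 had 8 and 11 reads in the NONO IP and 2 and 2 in the inputs, a ratio of 3.16 (interval 1.05 to 12.8). Rbm5 and Rbm6 overlap in the RefSeq gene table, and the strand setting of the count is not given, so reads between them are uncertain.

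Rbm15, like Rbm15b a partner of RNA methylation, had 7 and 6 reads in the NONO IP and 13 and 8 in the inputs (ratio 0.412, interval 0.190 to 0.863). Rbm20, the cardiac regulator of titin splicing, had 3 and 3 reads in the NONO IP and 2 and 4 in the inputs, too few to show any difference. The other RBM genes with at least 10 reads were Rbm12, Rbm28, Rbm27, Rbm7, Rbm17, Rbm38 and Rbm10, with ratios between 0.666 for Rbm27 and 1.07 for Rbm17 and Rbm38, and all their intervals included 1. The remaining 21 members had 1 to 9 reads over the 4 libraries. In a fit with no count filter, 10 of all 69 members were higher and 4 lower, beside 8.59% and 4.73% of 13731 genes, that is 14.5% and 5.80% of the members. Pcbp4 (adjusted p = 0.0610), Rbm42 (0.0902) and Hnrnpl (0.218) lost their lower calls in that edgeR fit. Pcbp1, Pcbp3 and Rbm3 were called there but not in the fit with the filter, Rbm3 at −2.76 (SE 0.73, edgeR adjusted p = 0.00570).

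Summed over all 69 genes, which needs no filter, the members took 4467 and 4260 CPM in the NONO IP and 2709 and 2772 in the inputs. The fold was 1.59, with no overlap, and the exact two-sided permutation p of 0.333 is the smallest that 2 against 2 libraries allow. On the log2 scale this is 0.67, for a sum in which genes with many reads weigh most. The median log2 fold change with library totals was 0.46 over the 29 tested members and 0.48 over all tested genes. On the TMM scale the sum was 1.18-fold higher in the NONO IP (4122 ± 146 and 3493 ± 14.7 CPM, SD, n = 2 each). On the deposited RPKM scale it reversed, at 325 ± 2.58 in the NONO IP and 531 ± 39.5 in the inputs (SD, n = 2 each), a fold of 0.612, beside 0.583 for the summed RPKM of all genes. The members made up 0.305% and 0.315% of all RPKM in the NONO IP and 0.278% and 0.312% in the inputs. Without Hnrnpf and Rbfox2, a pair picked after the values were seen, the TMM-scaled sum had a fold of 0.937.

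**Figure D4:**
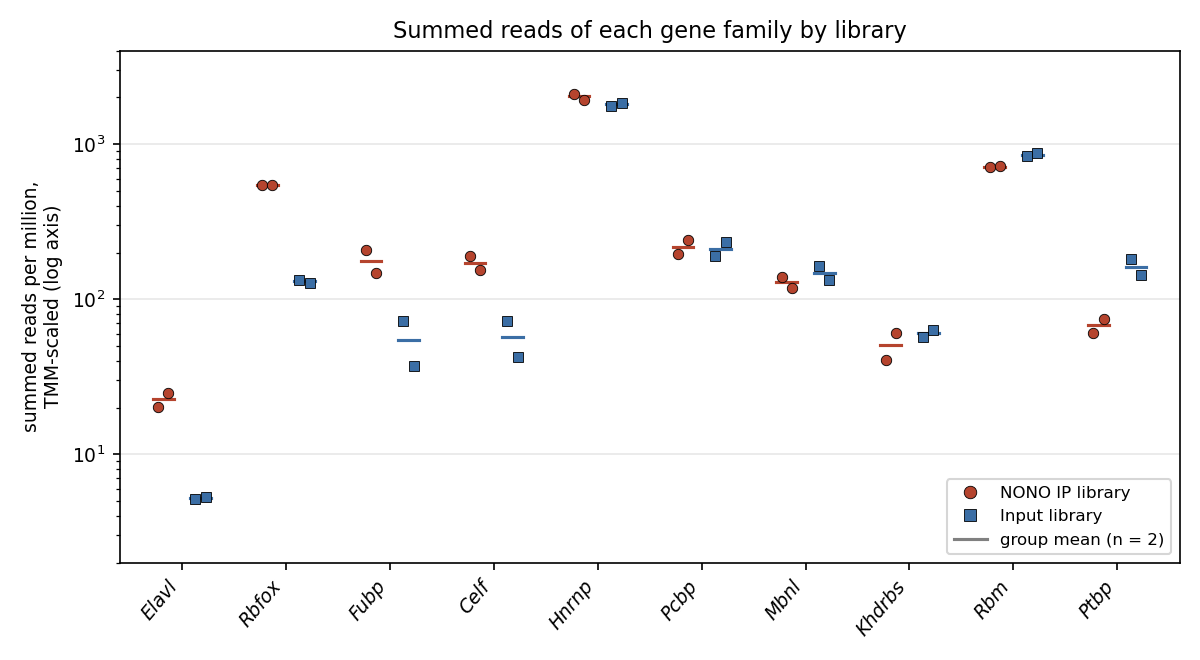
Summed reads of each gene family in TMM-scaled CPM, log axis, with NONO IP libraries (circles) left of input libraries (squares) and bars at group means (n = 2). Elavl, Rbfox, Fubp, Celf and Hnrnp sums lie above the inputs in both NONO IP libraries and the Ptbp and Rbm sums lie below, but the Hnrnp and Rbm directions turn with the scaling.

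By family, the Rbfox sum was 545 and 547 TMM-scaled CPM in the NONO IP and 134 and 127 in the inputs (4.18-fold), nearly all of it Rbfox2. The Celf sum was 3.0-fold and the Fubp sum, mostly Fubp3, 3.23-fold higher, and the Elavl sum, of 15 reads in all, 4.34-fold. The Ptbp sum, mostly Ptbp1, had a fold of 0.421. These directions were the same with library totals and with RPKM sums. The Hnrnp sum, over 17 genes, had a fold of 1.12 on the TMM scale, 1.51 with library totals and 0.622 on the RPKM scale, and the Rbm sum one of 0.832, 1.12 and 0.426, so that the direction of both turns with the scaling. The Pcbp, Mbnl and Khdrbs sums had folds between 0.843 and 1.03 on the TMM scale, with overlapping groups, and each also turned direction with the scaling.

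Levels of different genes can be compared only per length, as the deposited RPKM values do. In the inputs Hnrnpab stood first at 103 and 144 RPKM. Hnrnpul2 (26.1 and 30.2), Hnrnpu (27.2 and 28.2) and Rbm15b (26.4 and 23.3) followed in order of their means, and the range of Hnrnpul2 overlapped those of the other 2. Hnrnpf had 12.7 and 15.02 RPKM there. In the NONO IP Hnrnpf stood first at 59.5 and 53.4 RPKM, and Hnrnpab second at 28.96 and 34.0 RPKM, followed by Hnrnpll (23.9 and 24.9) and Pcbp1 (22.4 and 24.1), which overlapped.

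Within a library the ratio of reads of related genes is free of the scaling. The ratio of Hnrnpf to Hnrnph1 reads was 23.0 and 32.8 in the NONO IP and 1.00 and 2.67 in the inputs. For Hnrnpll over Hnrnpl it was 4.18 and 4.47 in the NONO IP and 0.864 and 1.21 in the inputs, and for Hnrnpd over Hnrnpab 0.830 and 0.780 in the NONO IP and 0.147 and 0.0978 in the inputs. Each of these ratios differed between the groups without overlap. Hnrnpf, Hnrnpll and Hnrnpd were already called higher, and Hnrnpl and Hnrnpab lower. Hnrnph1, which was not tested, had few reads and a NONO IP to input ratio of 0.366. The ratios of these pairs therefore had to differ and add nothing to those calls.

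Pcbp1 over Pcbp4 gave 10 and 4.88 in the NONO IP and 1.45 and 1.21 in the inputs, and Celf2 over Celf1 gave 1.62 and 0.850 in the NONO IP and 0.400 and 0.167 in the inputs. Pcbp4 was already called lower and Celf2 higher, so these ratios are not separate evidence for those calls. The ratio of Mbnl1 to Mbnl2, at 1.56 and 1.06 in the NONO IP and 1.13 and 0.786 in the inputs, overlapped between the groups. Pcbp1 over Pcbp2 and Hnrnpul1 over Hnrnpul2 were the other pairs examined, with the NONO IP ratio 2.29 and 1.59 times that of the inputs from pooled reads. No test was made of these ratios, since an exact permutation test of 2 against 2 libraries cannot go below 0.333, and the 8 pairs were listed with the members' values known.

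**Figure D5:**
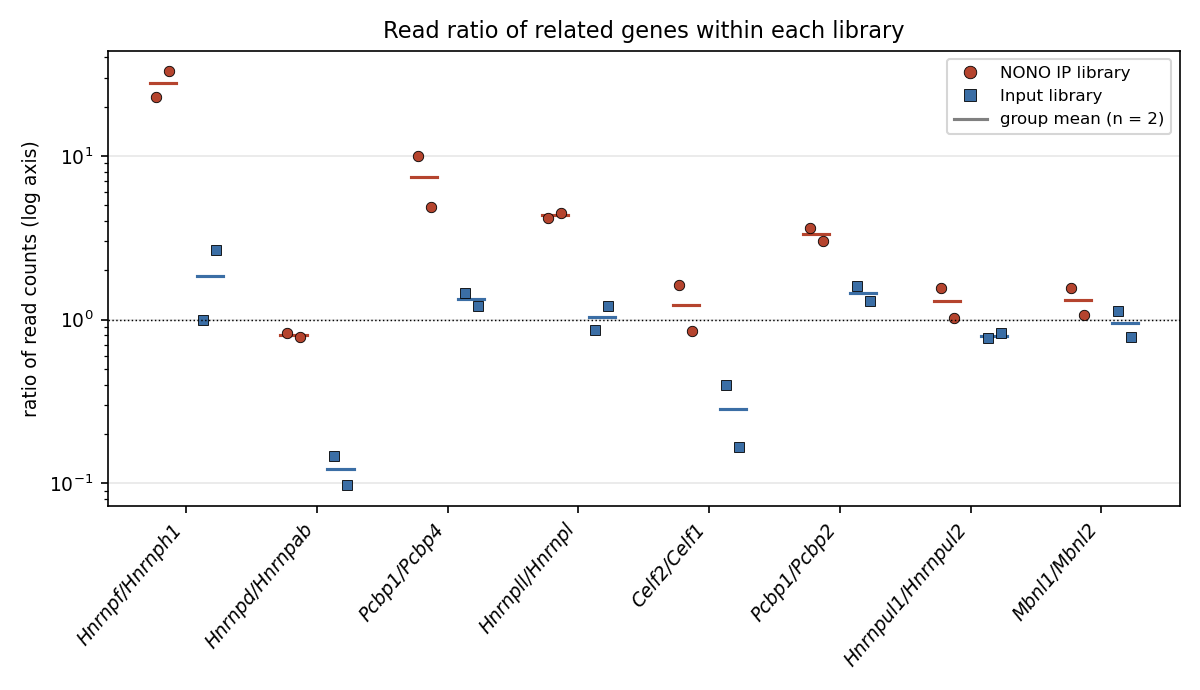
Ratio of the read counts of related genes within each library, log axis, with NONO IP libraries (circles) left of input libraries (squares) and bars at group means (n = 2). The Hnrnpf to Hnrnph1 ratio was 23.0 and 32.8 in the NONO IP and 1.00 and 2.67 in the inputs, while the Mbnl1 to Mbnl2 ratio overlapped.

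A list of 81 other RNA-binding protein genes was set beside the members, of which 75 were listed and 38 tested. Of these, 14 rose and 5 fell, or 36.8% and 13.2%, beside 29.8% and 26.9% of all genes tested, with a median log2 fold change of 0.42. The list was drawn up with earlier results of these data known. Rbpms, a coregulator of smooth and cardiac muscle splicing, rose by 2.72 (SE 0.17), Rbms1 by 2.52 (SE 0.26), Msi2, a Musashi protein, by 2.16 (SE 0.31) and Samd4a, a Smaug-type repressor of translation, by 1.21 (SE 0.17). Among those that fell were the stress granule protein Caprin1 (−1.89, SE 0.43), the RNA editing enzyme Adar (−1.18, SE 0.38) and nucleolin, Ncl (−0.65, SE 0.25). Msi2 reached the filter in both NONO IP libraries but not in both inputs. Caprin1 and Adar reached it in both inputs but not in both NONO IP libraries. Some other called genes of the list also passed through a single group, so nothing is read from these directions or from the split of the list.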

How the data were processed

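Gene-level values of 4 RIP-seq libraries were used, with groups and replicate numbers from the sample titles. The authors deposited whole-number read counts per gene, not normalised, and RPKM values, that is reads per kilobase scaled to a library total that is not stated. HISAT2 and HOMER are named per the submitters' processing notes, with the rat build mRatBN7.2. The role of each tool, the counting program and the strand setting were not given in the sources used here. The total behind the deposited RPKM was 2.45-fold and 2.22-fold that of Input replicate 1 in the NONO IP libraries, from 461 genes with at least 30 counts in each library, so both units scale the groups differently. Members, lists and pairs were chosen with earlier results of these data known.

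The main test was edgeR 4.0.16 (R 4.3.3), quasi-likelihood, TMM scaling, filterByExpr (2920 genes, 91.1% of counts), Benjamini-Hochberg adjustment over all genes and a threshold of 0.05; SE is the log2 fold change over the root of F. Scaled CPM uses effective library sizes of this fit. Ratios outside the test are of TMM-scaled counts with exact conditional 95% intervals; without molecular identifiers they cover counting error only. Replicates differed by 1.42 (NONO IP) and 1.12 (inputs) chi-square per degree of freedom, where 1 is sampling noise, and were kept as 2 per group. Every tested member is named, as is any other with at least 10 reads, and up to 4 genes each way with the smallest adjusted p from the comparison list, of which 1 is not reported here. Overlaps came from RefSeq on GRCr8, used for names only; all 69 symbols matched and 31 overlap another gene. Alternatives were DESeq2 size factors, library totals, DESeq2 1.42.0, limma-voom 3.58.1, other filters, protein-coding genes alone, limma on log2 RPKM with pseudocounts of 1 and 0.1 (RPKM of at least 1 in 2 libraries, or no filter), the replicate block, a loess offset for relative gene length (span 0.5), and leaving out each library, where the lone library of a group is assumed to vary like the other group.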

Additional observations from a re-analysis of the deposited data

How the results depend on the processing

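Hnrnpf, Rbfox2, Hnrnpab and Ptbp1 kept their calls in every alternative run on them, and 10 of the 14 called members lost theirs in at least 1, while none of the 14 reversed. Over the 29 tested members, 369 of 467 alternative values kept direction and call, 51 lost it, 17 gained it and 30 turned. Where values moved, the cause was not tested. Members called higher and lower numbered 8 and 6. They were 3 and 1 with at least 50 counts in 2 libraries (5 members tested), 2 and 12 on log2(RPKM + 1), and 3 and 9 on log2(RPKM + 0.1). They were 2 and 5 on log2(RPKM + 1) with no filter and 6 and 3 by the DESeq2 test. Without 1 library they ranged over 6 to 8 and 4 to 5.

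The members' median was 0.46 with library totals, 1.09 with at least 50 counts, −0.68, −0.95 and −0.40 on the 3 RPKM settings, where all genes had −0.61, −0.82 and −0.22, and −0.20 to 0.29 without 1 library. Their summed reads, at a log2 ratio of 0.67, gave 0.24 on the TMM scale, 0.50 per protein-coding count and −0.71 as RPKM. Without Hnrnpu, the member with most reads, the log2 ratio was 0.72. Leaving out 1 library, an alternative added after the data were seen, gave 0.64 to 0.70. Over all genes, 871 higher and 786 lower became 453 and 423 by DESeq2 and 254 and 247 with at least 50 counts. They became 393 and 1425 on log2(RPKM + 1), 348 and 1143 on log2(RPKM + 0.1), 132 and 565 with no RPKM filter, and 1219 and 444 with library totals; without 1 library they ranged over 679 to 810 and 615 to 705. The median of all genes moved to 0.48 with library totals and −0.11 with the length offset, against 0.02. Calls in the comparison list, 14 and 5, became 7 and 2 by DESeq2, 5 and 1 with at least 50 counts, 2 and 9 on log2(RPKM + 1), 2 and 6 on log2(RPKM + 0.1) and 1 and 2 with no RPKM filter. They were 20 and 2 with library totals, 15 and 3 with no count filter and 14 and 3 with protein-coding genes alone; without 1 library the list had 11 to 14 and 3 to 5.

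Only uncalled members turned. With library totals they were Hnrnpul2 (0.16), Hnrnpu (0.30), Rbm26 (0.27), Mbnl1 (0.46), Mbnl2 (0.017), Rbm15b (0.11) and Khdrbs1 (0.29). With no count filter they were Hnrnpu (0.053), Rbm26 (0.027), Mbnl1 (0.21) and Khdrbs1 (0.048), and with protein-coding genes alone Mbnl1 (0.070). On the RPKM settings they were Hnrnpdl (−0.37, −0.45), Hnrnpul1 (−0.27, −0.30) and Hnrnpa2b1 (−0.20, −0.22). Without 1 library Rbm26 ranged from −0.93 to 0.36, Hnrnpdl from −0.41 to 0.82, Mbnl1 from −0.32 to 0.29, Hnrnpa2b1 from −0.20 to 0.97 and Khdrbs1 from −0.50 to 0.21. The labels do not tie replicate numbers across groups, and deviations of same-numbered libraries correlated at 0.0508; the replicate block left the members' calls at 9 higher and 6 lower. Depth limits the rest, since 40 of 69 members fell below the count filter.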
